A study of Mus musculus with 5 samples.

Results

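The genes described here are 7 that red blood cells and their precursors use for oxygen transport and for the cell membrane: the alpha-globin gene Hba-a1, its chaperone gene Ahsp, the heme synthesis gene Alas2, and the membrane protein genes Slc4a1, Epb42, Rhag and Rhd. They were chosen by symbol, and 6 of the 7 had a row among the 25631 transcript rows of the table. No row carried the symbol Ahsp, so that gene was not analysed here. Whole testes of male mice at postnatal day 9 were profiled on 5 one-colour NimbleGen expression arrays. The arrays came from 1 Cre-positive Dmrt1 knockout with DHH-cre, 3 Cre-positive Dmrt1 knockouts with NGN-cre, and 1 Cre-negative control that bears the NGN-cre genotype label. The labels give the drivers only by those names and do not say whether each RNA came from 1 animal or a pool, and a p-value here reflects the scatter of these arrays alone, part of which may be technical.

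A red cell carries oxygen on hemoglobin, a tetramer of alpha and beta globin chains that each hold a heme. Alas2 makes the enzyme of the first and rate-limiting step of heme synthesis in erythroid cells. Slc4a1 encodes band 3, the anion exchanger that also anchors the membrane skeleton, Epb42 encodes protein 4.2, which binds band 3, and Rhag and Rhd encode the Rh-associated glycoprotein and the Rh polypeptide of the Rh complex. The testis makes no red cells, and young red cells in its vessels still hold globin RNA, so these transcripts are used to read the blood content of a tissue sample. In whole tissue, fewer red cells and less of a transcript per cell cannot be told apart.

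On the DHH-cre array the bright erythroid transcripts Hba-a1 and Alas2 and the dimmer Slc4a1 were the lowest of the 5 arrays, while Rhd lay within the range of the other arrays and Epb42 and Rhag were at the level of unexpressed genes throughout. Against the NGN-cre knockouts, 1 of the 6 genes passed the test, Slc4a1, which fell. Among all rows of that comparison 0.73% were called lower. Between the NGN-cre knockouts and the control, none of the 6 passed the test, where 0.0% of all rows did.

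GATA1, the master transcription factor of erythroid cells, binds the letters AGATAA or TGATAA. Upstream windows of 250 bases, which end at the base before the RefSeq transcription start (GRCm38.p6), were available for 5 of the 6 measured genes. Slc4a1 had no window, and each of the 5 held a match on either strand. Of 32851 promoter windows of the same length, 16.6% held one. These windows are shown for Hba-a1 and Alas2, which were low on the DHH-cre array, and for Rhd, which was not. The window of Hba-a1 lies at chr11:32283422-32283671, that of Alas2 at chrX:150547167-150547416 and that of Rhd at chr4:134864286-134864535, all on the plus strand. Capitals mark the match, and the strand opposite to AGATAA reads TTATCT.

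Hba-a1: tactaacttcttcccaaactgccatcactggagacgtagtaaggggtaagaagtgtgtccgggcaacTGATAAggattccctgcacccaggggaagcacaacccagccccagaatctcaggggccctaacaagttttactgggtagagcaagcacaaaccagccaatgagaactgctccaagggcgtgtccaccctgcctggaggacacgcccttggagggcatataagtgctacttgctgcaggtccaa

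Alas2: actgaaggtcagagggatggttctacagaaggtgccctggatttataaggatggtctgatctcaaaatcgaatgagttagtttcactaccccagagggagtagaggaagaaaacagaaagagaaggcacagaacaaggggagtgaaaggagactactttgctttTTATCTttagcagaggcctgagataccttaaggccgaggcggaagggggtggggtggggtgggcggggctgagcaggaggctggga

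Rhd: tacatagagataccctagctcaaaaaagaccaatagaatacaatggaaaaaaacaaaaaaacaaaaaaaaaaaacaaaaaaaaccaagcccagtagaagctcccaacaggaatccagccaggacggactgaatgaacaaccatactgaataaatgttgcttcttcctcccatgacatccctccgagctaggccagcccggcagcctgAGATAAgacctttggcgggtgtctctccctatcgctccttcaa

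Counted back from the start site, the match begins at position -183 for Hba-a1, -86 for Alas2 and -43 for Rhd. In Rhag it begins at -31 and in Epb42 at -226. A match of letters is a description of the window. Hba-a1 and Alas2, both low on the DHH-cre array, held a match, and so did Rhd, which was not low. Of 5 windows of other globin genes 4 held a match, and that of the beta-globin gene Hbb-bt held none. The window of Hba-a1 shares an unbroken run of 247 bases with that of its duplicate Hba-a2.

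The arrays were alike in scale, with median intensities between 721.2 and 730.1. The DHH-cre array stood apart: the SD of log2 differences over all rows was 0.58 to 0.67 between it and the other arrays, against 0.35 to 0.50 among the other 4. The array numbers in the labels also place it apart, so array batch and the DHH-cre deletion cannot be told apart in any result below. Dmrt1, the deleted gene, had an intensity of 6415.8 on the DHH-cre array, 4884.2, 5644.4 and 5508.9 on the NGN-cre arrays and 11846.6 in the control. The 9 measured testis markers, of Sertoli, germ and Leydig cells, had log2 intensities of at least 10.45 on every array. The 1064 rows of olfactory receptor genes, which serve here as a level for genes not in use, had median log2 intensities of 5.16 to 5.30.

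**Figure D1:**
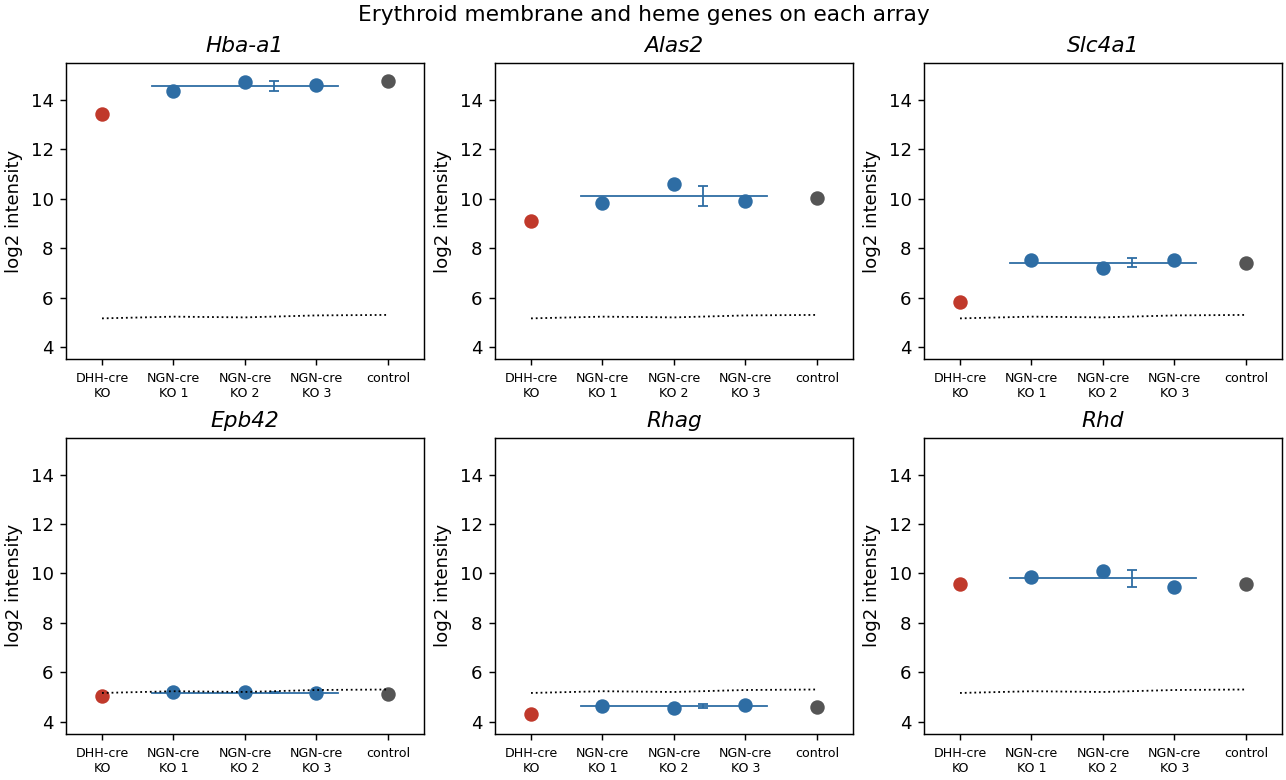
Log2 intensity (y axis) of 6 erythroid membrane and heme genes on each of the 5 arrays (x axis, 1 point per array). The blue line is the mean of the 3 NGN-cre knockout arrays and the bar on it their SD, and the dotted line is the median of olfactory receptor rows on each array. The DHH-cre point is below the other 4 for Hba-a1, Alas2 and Slc4a1, and Epb42 and Rhag run along or below the dotted line.

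Hba-a1 (NM_008218) was far above the olfactory receptor level on every array. Its intensity was 10962.5 on the DHH-cre array, 21049.9, 27369.0 and 24841.6 on the NGN-cre arrays and 27759.8 in the control. The DHH-cre value was below all others, and the control lay just above the highest NGN-cre array. The DHH-cre array held 39.5% of the control intensity (log2 difference -1.34). Against the NGN-cre mean it was 45.2%, a log2 difference of -1.15 (SE 0.24, 95% interval -1.72 to -0.57), and this difference missed the threshold (limma, Benjamini-Hochberg adjusted p = 0.0808). It did pass when the variance was modelled with an intensity trend (limma, adjusted p = 0.00659). Hba-a1 passed in only 1 of 9 alternatives. The table has no row named Hba-a2, and the transcripts of these duplicates are so alike that the Hba-a1 row may read both.

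Alas2 (NM_009653) had an intensity of 555.7 on the DHH-cre array, 923.3, 1541.7 and 953.7 on the NGN-cre arrays and 1050.5 in the control. NGN-cre replicate 2 stood above the other arrays, and the DHH-cre array stood below all of them. The DHH-cre level was 52.9% of the control (log2 -0.92). The log2 difference from the NGN-cre mean was -0.99 (SE 0.33, 95% interval -1.79 to -0.20), and it did not pass over all rows (limma, Benjamini-Hochberg adjusted p = 0.185).

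Slc4a1 (NM_011403) had an intensity of 56.4 on the DHH-cre array, 186.4, 148.7 and 182.0 on the NGN-cre arrays and 171.0 in the control. The 4 other arrays lay within 0.33 log2 units of each other and the DHH-cre array 1.40 below the lowest of them. The DHH-cre array held 33.0% of the control intensity (log2 difference -1.60). Against the NGN-cre knockouts it fell by 1.60 as well (SE 0.24, 95% interval -2.17 to -1.04; limma, Benjamini-Hochberg adjusted p = 0.0442), and 0.901% of all rows were as low or lower. The call was lost without NGN-cre replicate 1 (limma, adjusted p = 0.131) and with 32 added to every intensity (limma, adjusted p = 0.0591). On the DHH-cre array 30.8% of olfactory receptor rows were brighter than Slc4a1, against 9.49% to 11.0% on the NGN-cre arrays and 10.9% in the control, so the size of the fold is uncertain.

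Epb42 (NM_013513), which encodes the band 3 partner protein 4.2, had an intensity of 32.8 on the DHH-cre array, 36.5, 36.2 and 35.2 on the NGN-cre arrays and 34.9 in the control. Rhag (NM_011269) had 19.9 on the DHH-cre array, 24.8, 23.5 and 25.8 on the NGN-cre arrays and 24.4 in the control. Both were lowest on the DHH-cre array by a small step, but between 50.7% and 57.2% of olfactory receptor rows were brighter than Epb42 and between 75.2% and 91.5% brighter than Rhag. No fold is given for either, and a difference was not detectable at this level.

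Rhd (NM_011270), well above the olfactory receptor level, was not lowest on the DHH-cre array. Its intensity was 768.6 on the DHH-cre array, 917.2, 1102.6 and 704.3 on the NGN-cre arrays and 767.9 in the control. The DHH-cre and control values were nearly equal, and both lay inside the NGN-cre range. The log2 difference from the NGN-cre mean was -0.22 (SE 0.29, 95% interval -0.91 to 0.48; limma, Benjamini-Hochberg adjusted p = 0.745). The interval takes in a fall of up to 0.91, so it is not shown that Rhd was level.

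Read together, 5 of the 6 genes were lowest on the DHH-cre array, against 29.1% of all rows, and 0 were highest there, against 29.0%. Epb42 and Rhag, whose order at that level carries no information, are 2 of the 5, and of the other 4 genes 3 were lowest. By a rule of size, a difference from the control of at least 1 log2 unit that also exceeds the range spanned by the 3 NGN-cre arrays, 2 of the 6 were lower on the DHH-cre array, Slc4a1 and Hba-a1, against 4.81% of all rows, and 0 were higher, against 5.55%. That comparison sets 1 array against 1 and has no test. The median log2 difference of the 6 genes was -0.61 against the control, where all rows had -0.02, and -0.66 against the NGN-cre knockouts, where all rows had 0.01. With Epb42 and Rhag left out as dim rows, these medians were -1.13 and -1.07. The comparisons share the DHH-cre array.

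Between the NGN-cre knockouts and the control, 0 of the 6 genes passed (limma, Benjamini-Hochberg adjusted p from 0.897 to 0.998), and 0 had an unadjusted p under 0.05. Of all rows 0.0% were called, and 2015 had an unadjusted p under 0.05. Log2 differences were -0.19 for Hba-a1 (95% interval -0.77 to 0.38), 0.08 for Alas2 (-0.72 to 0.87), 0.00 for Slc4a1 (-0.56 to 0.57) and 0.22 for Rhd (-0.48 to 0.91). The 3 NGN-cre arrays did not sit on 1 side of the control: Alas2 was above it only in replicate 2 and Slc4a1 in replicates 1 and 3. Hba-a1 was below it in all 3, by 0.40, 0.02 and 0.16. With 1 control array, a permutation of 3 against 1 cannot give a p below 0.25.

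Of the 5 other globin rows, 3 were lowest on the DHH-cre array. Hbb-bt and Hbb-b2, adult beta-globin genes, were bright and lowest on the DHH-cre array. Log2 intensities of Hbb-bt were 12.61 on the DHH-cre array, 13.60, 13.90 and 13.59 on the NGN-cre arrays and 13.63 in the control. Those of Hbb-b2 were 10.56 on the DHH-cre array, 11.58, 11.92 and 11.68 on the NGN-cre arrays and 11.69 in the control. The log2 differences of DHH-cre from control were -1.02 and -1.12, beside -1.34 for Hba-a1, so the 3 adult globin rows lay low by similar amounts. Against the NGN-cre knockouts they were -1.09 and -1.17, and neither passed over all rows (limma, Benjamini-Hochberg adjusted p = 0.0851 and 0.075). Both passed with an intensity trend (limma, adjusted p = 0.0128 and 0.0273) and without NGN-cre replicate 3 (limma, adjusted p = 0.0439 and 0.0416). Each of these rows passed in only 2 of 9 alternatives. The adult beta-globin genes are near copies of each other, so these rows may share signal.

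The 3 embryonic globin rows, added after their values were seen, had lower signals. Log2 intensities of Hba-x, which encodes the zeta chain, were 5.58 on the DHH-cre array, 5.67, 5.92 and 6.16 on the NGN-cre arrays and 5.55 in the control. Hbb-bh1 had 4.45 on the DHH-cre array, 5.12, 4.90 and 5.09 on the NGN-cre arrays and 4.94 in the control. Hbb-y, which encodes the epsilon chain, had 6.68 on the DHH-cre array, 6.77, 6.14 and 5.85 on the NGN-cre arrays and 7.25 in the control. For Hba-x and Hbb-y the DHH-cre array lay between other arrays. Hbb-bh1 was lowest on the DHH-cre array, 0.44 below the next, with a log2 difference of -0.58 from the NGN-cre mean (limma, Benjamini-Hochberg adjusted p = 0.231), but it stood below the olfactory receptor median on every array.

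**Figure D2:**
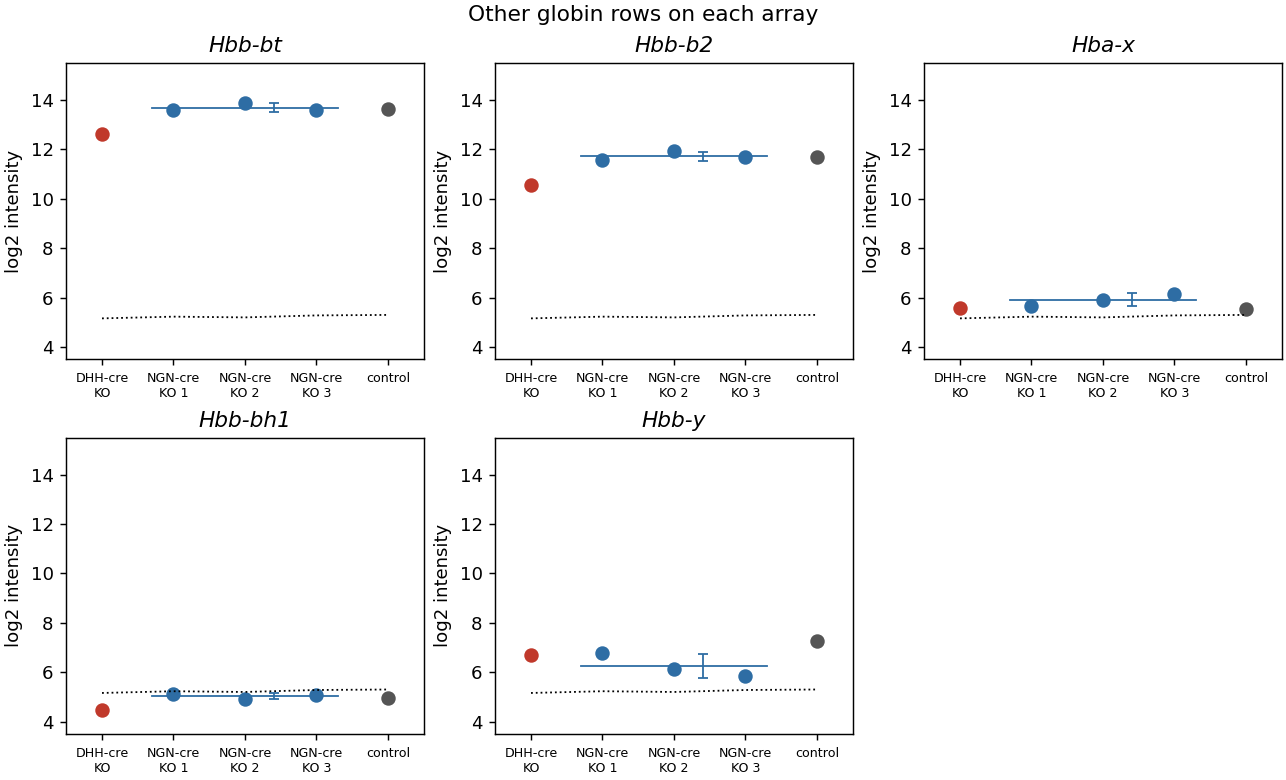
Log2 intensity (y axis) of 5 other globin rows on each array (x axis, 1 point per array), with the mean and SD of the 3 NGN-cre knockout arrays in blue and the median of olfactory receptor rows dotted. The adult genes Hbb-bt and Hbb-b2 are lowest on the DHH-cre array, at 12.61 and 10.56, and Hbb-bh1 is lowest there too, at 4.45, below the dotted line. Hba-x lies above the dotted line by less than 1 log2 unit on each array, and Hbb-y reaches 7.25 in the control.

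The 7 other erythroid lists, of globin chains, heme synthesis and turnover, red cell membrane, membrane skeleton, transcription, iron uptake and maturation, held 64 measured genes, the 5 globin rows included. Against the NGN-cre knockouts 0 of the 64 passed the test in either direction, where 1.0% of all rows did. Between NGN-cre and control 0 of the 64 passed, where 0.0% of all rows did. Counts this near the share of all rows do not set these lists apart. In the heme pathway list, 12 of 15 genes were lower on the DHH-cre array than in the control, with a median of -0.27, while 51.7% of all rows were lower. The largest differences were -0.73 for Ppox, protoporphyrinogen oxidase, and -0.70 for Abcb10, a mitochondrial transporter. Against the NGN-cre knockouts the same list had 10 of 15 lower with a median of -0.22, where 49.4% of all rows were lower. The NGN-cre knockouts were themselves below the control in 11 of 15, with a median of -0.12, where 52.6% of all rows were lower.

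The list of other red cell membrane genes was not low as a whole on the DHH-cre array, with 5 of 9 genes below the control and a median of -0.12. In the NGN-cre knockouts 9 of 9 were below the control, with a median of -0.24, where 52.6% of all rows were lower.

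Membrane skeleton genes with broad use had 5 of 9 members below the control on the DHH-cre array and a median of -0.01, the largest differences being -0.71 for Tmod1, a tropomodulin that caps actin filaments, and -0.42 for the water channel gene Aqp1. Transcription factors of the erythroid programme had 8 of 9 below the control and a median of -0.15, where all rows had 51.7% and -0.02. The largest differences were Gata1 at -0.74 and its cofactor gene Zfpm1 at -0.68. In NGN-cre replicate 3 Zfpm1 was lower still, at -0.74 from the control. In the NGN-cre knockouts 5 of 9 of these transcription factors were below the control, with a median of -0.2, where 52.6% of all rows were lower. Gata1 is also made by Sertoli cells of the mouse testis and its log2 intensity was 13.88 on the DHH-cre array, 14.78, 14.48 and 13.99 on the NGN-cre arrays and 14.62 in the control. Its DHH-cre value was close to that of NGN-cre replicate 3.

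Among 12 genes of red cell enzymes and maturation, 6 were lower and 6 higher on the DHH-cre array than in the control. Prdx2, a peroxiredoxin abundant in red cells, had log2 intensities of 10.49 on the DHH-cre array, 11.47, 11.44 and 11.61 on the NGN-cre arrays and 11.75 in the control, so that the DHH-cre array stood 0.94 below the lowest of the rest. It differed from the NGN-cre mean by -1.01 (SE 0.22; limma, Benjamini-Hochberg adjusted p = 0.0835), and passed with an intensity trend (limma, adjusted p = 0.0395). Prdx2 passed in only 1 of 9 alternatives. Bnip3l, which clears mitochondria from maturing red cells and was picked out after its values were seen, had 11.51 on the DHH-cre array, 12.18, 12.23 and 12.33 on the NGN-cre arrays and 12.31 in the control. Alox15, a lipoxygenase of maturing red cells and of macrophages, was 1.05 above the control on the DHH-cre array and 1.01 above it in the NGN-cre mean. Of 5 genes for erythropoietin signalling and iron uptake, Steap3, an iron reductase, was 2.14 above the control on the DHH-cre array. In the NGN-cre mean Steap3 was 0.98 above the control (limma, Benjamini-Hochberg adjusted p = 0.452). Slc11a2, an iron transporter, was at -0.46 from the control on the DHH-cre array and lower still, at -0.69, in NGN-cre replicate 3.

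**Figure D3:**
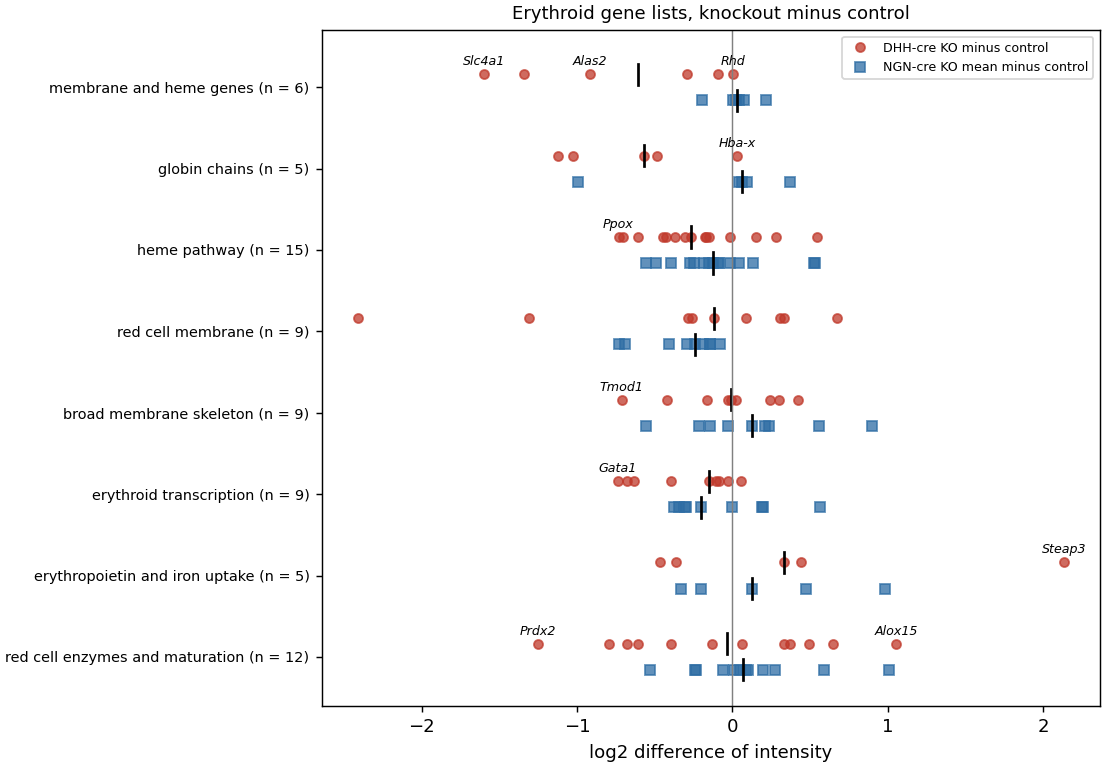
Log2 difference from the control (x axis) of the 6 erythroid membrane and heme genes and of 7 further erythroid lists (rows), for the DHH-cre array (red circles) and the mean of the 3 NGN-cre arrays (blue squares), with 1 point per gene and a black bar at each list's median. The DHH-cre median is -0.61 for the membrane and heme genes and -0.57 for the globin chains, and between -0.27 and 0.33 for the other 6 lists. Both differences share 1 control array.

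Of the markers of other blood cells, 0 passed in either tested comparison with all arrays in the fit. Of all rows, 1.0% were called between the knockouts and 0.0% between NGN-cre and control, so this count does not set the markers apart. Leaving out NGN-cre replicate 3 raised the calls among the 25631 rows from 257 to 1321 and from 0 to 238. Without NGN-cre replicate 3, Gp9 passed between the knockouts, at 1.19 higher with DHH-cre (limma, Benjamini-Hochberg adjusted p = 0.0327), and Cd3e passed between NGN-cre and control, at 1.40 higher with NGN-cre (limma, Benjamini-Hochberg adjusted p = 0.0448). Against the NGN-cre knockouts, where 49.4% of all rows were lower, 3 of 11 platelet genes were lower with a median of 0.34, 9 of 14 neutrophil genes with a median of -0.03, 9 of 13 lymphocyte genes with a median of -0.32 and 5 of 11 macrophage genes with a median of 0.06. The platelet genes averaged a log2 intensity of 7.67 on the DHH-cre array, 7.33 to 7.46 on the NGN-cre arrays and 7.35 in the control, and Gp9, a subunit of the von Willebrand factor receptor of platelets, was highest on the DHH-cre array at 8.19. The platelet integrin gene Itga2b was 1.30 above the control on the DHH-cre array and 0.96 above it in the NGN-cre mean. Of the 14 neutrophil genes, 7 or 8 on each array did not exceed the level that 75% of olfactory receptor rows stay under, among them the azurophil protease gene Elane. Prtn3, another such protease, was at -1.30 from the control on the DHH-cre array and at -1.01 in the NGN-cre mean. The T cell genes Cd5 and Cd3e went opposite ways on the DHH-cre array, at -1.19 and 2.32 from the control. On the DHH-cre array 45.8% of olfactory receptor rows were brighter than Cd5, so the size of its fold is uncertain. In the NGN-cre mean Cd5 was at 0.04 and Cd3e at 1.02.

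Endothelial genes, which mark the vessels that hold the blood, were lower in 11 of 12 cases on the DHH-cre array than in the NGN-cre mean, with a median of -0.34, and in 9 of 12 cases than in the control, with a median of -0.12. Their mean log2 intensity was 10.63 on the DHH-cre array, 10.89 to 11.06 on the NGN-cre arrays and 10.71 in the control. The largest differences of the DHH-cre array from the control were 0.69 for Emcn, endomucin, and -0.57 for Flt1, a receptor for vascular endothelial growth factor. In the NGN-cre mean Emcn was at 0.64 and Flt1 at 0.02 from the control. Macrophage genes averaged 10.15 on the DHH-cre array, 9.94 to 10.34 on the NGN-cre arrays and 9.77 in the control, with Adgre1 at 0.76 and C1qc at 0.58 above the control on the DHH-cre array. In the NGN-cre mean Adgre1 was 1.20 and C1qc 0.53 above it. Among testis markers, Insl3 of Leydig cells was 0.93 above the control and Cyp11a1 0.59 above it on the DHH-cre array. The part of vessel, blood or testis cell content in the low erythroid values was not tested.

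**Figure D4:**
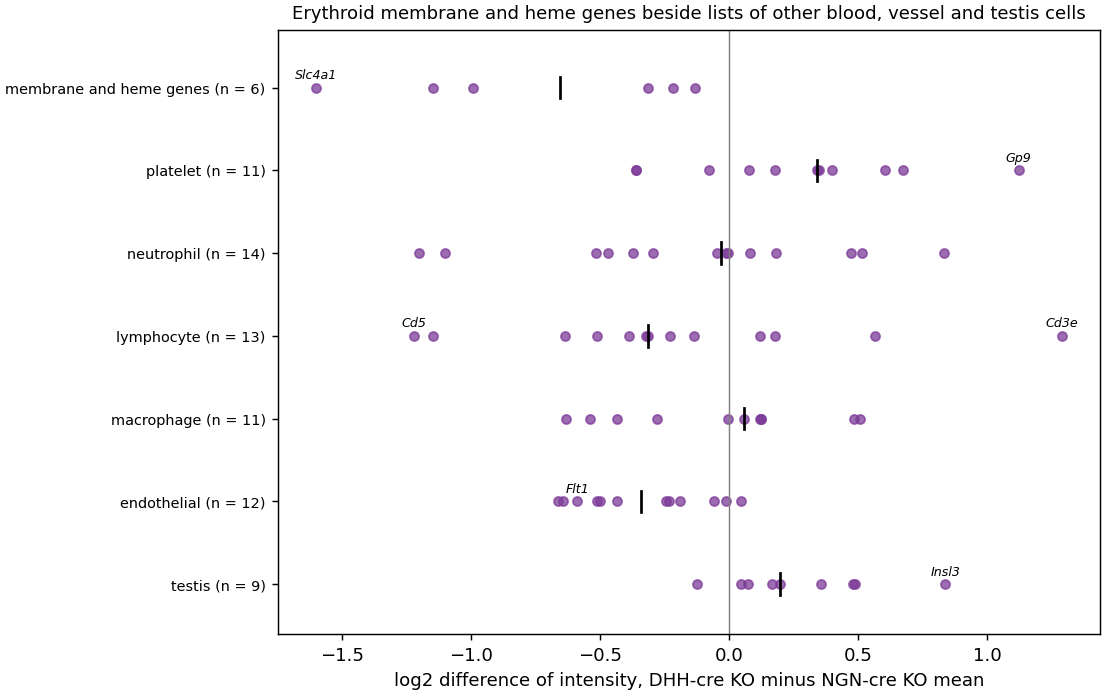
Log2 difference of the DHH-cre array from the mean of the 3 NGN-cre arrays (x axis) for the 6 erythroid membrane and heme genes and for lists of other blood, vessel and testis cells (rows), with 1 point per gene and a black bar at each median. The median is -0.66 for the membrane and heme genes, -0.34 for endothelial genes, -0.32 for lymphocyte genes and 0.34 for platelet genes.

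A search for genes with the same pattern over the 5 arrays compared each gene's values, centred on its own mean, with the mean centred profile of the 6 genes. Of 15407 named genes at or above the olfactory receptor level, the closest were Cd109, Satb1, Dbn1, Mgarp, Ankrd6, Lrig3, Klk8 and Mdk, with root mean square differences of 0.02 to 0.037 log2 units. Their DHH-cre values lay between -0.77 and -0.65 from the control. None of the 8 is on an erythroid list used here. Against that mean profile Hbb-b2 ranked 1159 and Hbb-bt 560 of 15407, at 0.181 and 0.146. Set against Hba-a1 alone, Hbb-b2 ranked 15 and Hbb-bt 48 of 15407, at 0.102 and 0.137. Closest to Hba-a1 were Olfr237 and Thy1, at 0.05 and 0.051. Set against Slc4a1 alone, Hbb-b2 ranked 162 and Hbb-bt 227, at 0.287 and 0.309. Slc4a1 differed more on the DHH-cre array. It was also lowest among the NGN-cre arrays in replicate 2, at 7.22, where Hbb-b2 and Hbb-bt were highest, at 11.92 and 13.90.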

How the data were processed

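Total RNA of 5 whole-testis samples was hybridised to NimbleGen MM8 60mer expression arrays labelled with Cy3, per the labels. What the authors deposited is 1 linear intensity per transcript and array. The submitters' processing notes name RMA without a version. RMA equalises the distributions of the arrays, so a change in total RNA cannot be seen. The number and place of the probes are not given in the sources used here.

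Log2 values were taken with no pseudocount and no filter. Of 25631 rows, 17780 matched a symbol in RefSeq's GRCm38.p6 gene table and 7851 stayed unnamed. Where a gene had several rows, the brightest stood for it, and each of the 6 genes had 1 row. The fit across rows used limma 3.58.1 under R 4.3.3 (1 mean per group, 2 residual degrees of freedom from the 3 NGN-cre arrays, two-sided, Benjamini-Hochberg over all rows, threshold 0.05). The lone DHH-cre and control arrays are assumed to vary like the NGN-cre arrays, and no test was made between these lone arrays. Over olfactory receptor rows alone, array pairs that include DHH-cre had an SD of log2 differences of 0.47 to 0.55. Pairs without it had 0.35 to 0.41. The DHH-cre array thus lay further off even in genes taken as not in use. The p-values of DHH-cre against NGN-cre do not allow for this and may be too small. The fit was tested on simulated data. Between the knockouts it recovered 15 of 50 rows simulated at 1 log2 unit and 49 of 50 at 2. Between NGN-cre and control it recovered 8 of 50 and 47 of 50. Differences near 1 log2 unit were thus often missed. The genes and lists were chosen with earlier results of these data known. For each list the text names the 2 genes that differed most between the DHH-cre array and the control, since none passed; those of the red cell membrane list are not reported here. The 3 embryonic globin rows and Bnip3l were added after their values were seen. The number of arrays limits the precision. Promoter sequences are RefSeq's.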

Additional observations from a re-analysis of the deposited data

Results flagged for a closer look

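Slc4a1 was singled out because its difference from the control was not the same under both deletions by the test of that difference itself. The DHH-cre value was lower than the NGN-cre mean by a log2 difference of -1.60 (limma, Benjamini-Hochberg adjusted p = 0.0442), below 3 of 3 NGN-cre arrays. The control cancels out of this difference, which rests on 1 DHH-cre array.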

How the results depend on the processing

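The lone DHH-cre and control arrays and the 3 NGN-cre arrays limit every value, and dim rows such as Epb42 and Rhag carry little signal over background. No paired analysis was possible because the labels give the arrays no shared replicate numbers. Between the knockouts, DHH-cre over NGN-cre, 1 of the 6 genes passed, against 2 with an intensity trend, 0 with 32 added to every intensity, and 0 to 1 when each NGN-cre array was left out. All rows called were 257, against 729 with the trend and 38 to 1321 when each NGN-cre array was left out, the lowest without replicate 1 and the highest without replicate 3. Between NGN-cre and control the count of all rows called was 0, against 66 with the trend and 0 to 238 without 1 NGN-cre array. The median of the 6 genes against the NGN-cre knockouts was -0.66, against -1.07 with dim rows left out, -0.58 with 32 added, and -0.75 to -0.55 without 1 NGN-cre array. Against the control it was -0.61, against -1.13 and -0.50 under the first 2 of these settings. Slc4a1, Hba-a1 and Alas2 kept their negative sign in all 9 alternatives against the NGN-cre knockouts.

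Differences near 0 that did not pass changed sign when 1 NGN-cre array was left out. Between NGN-cre and control, Slc4a1 ran from -0.06 to 0.11 (-0.04 without replicate 3), Alas2 from -0.16 to 0.21, Rhag from -0.01 to 0.06, Hbb-b2 from -0.06 to 0.11, Hbb-bt from -0.04 to 0.12, Gata1 from -0.38 to 0.01, Cd5 from -0.04 to 0.18 (-0.03 without replicate 1) and Flt1 from -0.10 to 0.13. Between the knockouts, Alox15 ran from -0.24 to 0.34, Elane from -0.13 to 0.05, C1qc from -0.02 to 0.16 and Emcn from -0.07 to 0.16. With arrays centred on the median, Slc4a1 between NGN-cre and control was -0.01. The cause was not tested.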
